A study of Mus musculus with 9 samples.

Results

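The cell cycle and DNA replication genes described here are 40 protein-coding genes that rise in dividing cells, 15 that act in S phase or at its entry (S phase genes) and 25 that act in mitosis (mitotic genes). They were taken by name, by a rule that uses no measured value but was set with earlier results of these data known. All 40 were found among the 27203 genes and assembled loci of the deposited table. Each gene's level is its FPKM (fragments mapped, scaled by transcript length and library size), summed over the gene's rows in the table. RNA of whole lung was sequenced from 9 male C57BL/6 mice aged 6 to 8 weeks, 3 in each of 3 groups. Control mice were intubated and not put on a ventilator. Mice with ventilator-induced lung injury (VILI) received 4 hours of mechanical ventilation at a high tidal volume of 20 ml/kg and were killed right after it (VILI 0 hours) or 6 hours later (VILI 6 hours). All groups were anaesthetized with ketamine and xylazine. Ventilated mice also received the muscle relaxant pancuronium, which the paper does not state for the controls. The paper reports hypoventilation in the controls and does not give their time under anaesthesia.

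A cell that leaves rest loads the Mcm helicase onto its replication origins, raises its supply of deoxynucleotides, copies its DNA in S phase and then builds the spindle that parts the chromosomes in mitosis. The transcripts of these steps are made in waves. E2F factors switch on the S phase genes, and pocket proteins of the retinoblastoma family hold E2F targets down in resting cells. Most mitotic genes come later and are held down by the DREAM complex, which binds a CHR element (cell cycle genes homology region) in their promoters, often beside CCAAT boxes bound by NF-Y. The adult lung divides little at rest, and its type 2 cells, endothelium and macrophages can enter the cycle after injury.

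The promoters of the members are shown first, as background on 2 classes of genes known to be controlled through different elements. Promoter sequence was not tested against expression. RefSeq windows on GRCm38.p6, from 250 bases before to 50 bases after the gene's start, were matched for 34 of the 40 members. The 150 bases before the start are shown for the 3 S phase genes of 13 that hold an E2F motif there, 5′ to 3′ on the gene's strand, with E2F motifs (TTTCCCGC, TTTGGCGC, TTTCGCGC or TTTGCCGC), CHR motifs (TTTGAA or TTCGAA) and CCAAT boxes in capitals on either strand. Overlapping matches share their capitals. Mcm5 lies at chr8:75109359-75109508 (plus strand), Mcm6 at chr1:128359706-128359855 (minus strand) and Cdc6 at chr11:98908001-98908150 (plus strand).
Mcm5: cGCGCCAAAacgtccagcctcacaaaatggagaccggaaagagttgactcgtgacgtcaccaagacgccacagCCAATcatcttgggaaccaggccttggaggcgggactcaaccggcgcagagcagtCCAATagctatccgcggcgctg
Mcm6: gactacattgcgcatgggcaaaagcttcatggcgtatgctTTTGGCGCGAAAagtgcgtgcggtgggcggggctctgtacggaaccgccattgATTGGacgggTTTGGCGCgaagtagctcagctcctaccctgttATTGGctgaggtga
Cdc6: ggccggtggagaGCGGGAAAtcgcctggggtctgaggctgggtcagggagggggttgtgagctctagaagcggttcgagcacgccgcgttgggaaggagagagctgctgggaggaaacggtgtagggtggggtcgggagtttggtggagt

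The same stretch is shown with the same capitals for 5 of the 6 mitotic genes, of 21, that hold a CHR motif there (28.6%, beside 9.89% of all genes; the sixth is Kif11), so these were chosen for their motifs: Cdc20 at chr4:118437344-118437493 (minus strand), Ube2c at chr2:164769779-164769928 (plus strand), Mki67 at chr7:135716380-135716529 (minus strand), Top2a at chr11:99024190-99024339 (minus strand) and Cdk1 at chr10:69352913-69353062 (minus strand).
Cdc20: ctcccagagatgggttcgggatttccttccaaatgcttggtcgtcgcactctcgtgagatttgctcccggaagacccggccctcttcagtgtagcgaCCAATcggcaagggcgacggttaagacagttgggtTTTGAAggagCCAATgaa
Ube2c: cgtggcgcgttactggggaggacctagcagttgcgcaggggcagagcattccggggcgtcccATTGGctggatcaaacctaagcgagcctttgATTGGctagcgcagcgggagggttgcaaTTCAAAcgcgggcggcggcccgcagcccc
Mki67: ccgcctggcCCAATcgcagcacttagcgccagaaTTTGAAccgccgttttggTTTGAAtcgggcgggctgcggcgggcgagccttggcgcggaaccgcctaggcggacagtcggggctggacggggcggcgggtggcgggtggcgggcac
Top2a: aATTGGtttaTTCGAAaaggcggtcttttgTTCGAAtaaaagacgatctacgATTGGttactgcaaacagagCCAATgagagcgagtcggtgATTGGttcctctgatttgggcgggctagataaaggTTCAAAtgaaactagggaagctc
Cdk1: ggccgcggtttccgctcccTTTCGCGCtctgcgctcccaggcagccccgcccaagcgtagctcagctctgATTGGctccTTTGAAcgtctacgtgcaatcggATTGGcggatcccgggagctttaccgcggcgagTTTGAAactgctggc

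An E2F motif was found in the windows of 6 of 13 S phase members (46.2%) and of 1 of 21 mitotic members (4.76%, Cdk1), beside 2.32% of the 27025 genes with a window. A CHR motif was found in 16 of 21 mitotic members (76.2%) and 2 of 13 S phase members (15.4%), beside 19.4% of all genes. A CCAAT box was found in 19 of 21 mitotic members (90.5%) and 7 of 13 S phase members (53.8%), beside 37.9% of all genes, and a CHR motif and a CCAAT box together in 16 mitotic members and 2 S phase members, beside 7.7% of all genes. These are matches of letters and not measured binding.

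**Figure D1:**
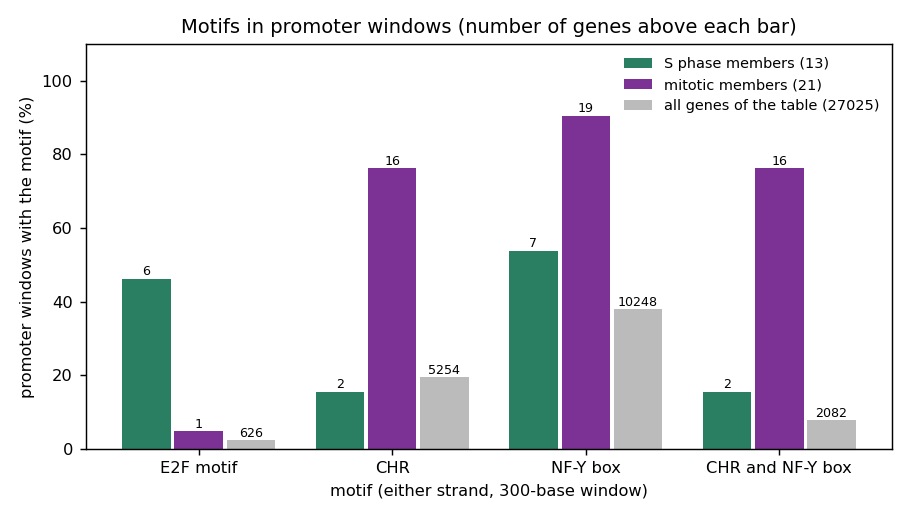
Share of promoter windows (%, 250 bases before to 50 after the start, RefSeq on GRCm38.p6) that hold each motif on either strand, for 13 S phase members, 21 mitotic members and 27025 genes, with the number of genes above each bar. The E2F motif bar is tallest for the S phase members (46.2%), and the CHR bar for the mitotic members (76.2%).

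Markers of the lung were present in every library. The summed level of 6 alveolar type 2 markers ran from 12533 to 15553 FPKM and that of 6 endothelial markers from 816 to 1036 FPKM. The libraries of VILI 6 hours were unlike each other: 19.4% of the genes tested had their highest level in VILI 6 hours replicate 1, and 31.3% had their lowest level in VILI 6 hours replicate 3. The calls with VILI 6 hours are also given without replicate 1, a choice that these shares do not single out. Replicate 1 held the lowest level of 10 of the 25 mitotic genes, so leaving it out by itself tends to raise their fold changes. Against control, fits without replicate 2 or 3 are given beside it.

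The members were expressed at low levels. Of the 40 members, all were above 0 in all 9 libraries, all passed the filter of a mean of at least 0.1 FPKM, and 32 had a mean of at least 1 FPKM. The highest was Pcna, the sliding clamp of the replication fork, with 31.9 ± 2.82 FPKM in control (SD, n = 3). The lowest single value was 0.179 FPKM, for Ccne1 in VILI 0 hours replicate 3. Differences were tested with limma on log2(FPKM + 0.1) over the 19378 genes and loci that passed the filter, and fold changes below are on that log2 scale. In whole lung, fewer cells of a type and less RNA per cell cannot be told apart.

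**Figure D2:**
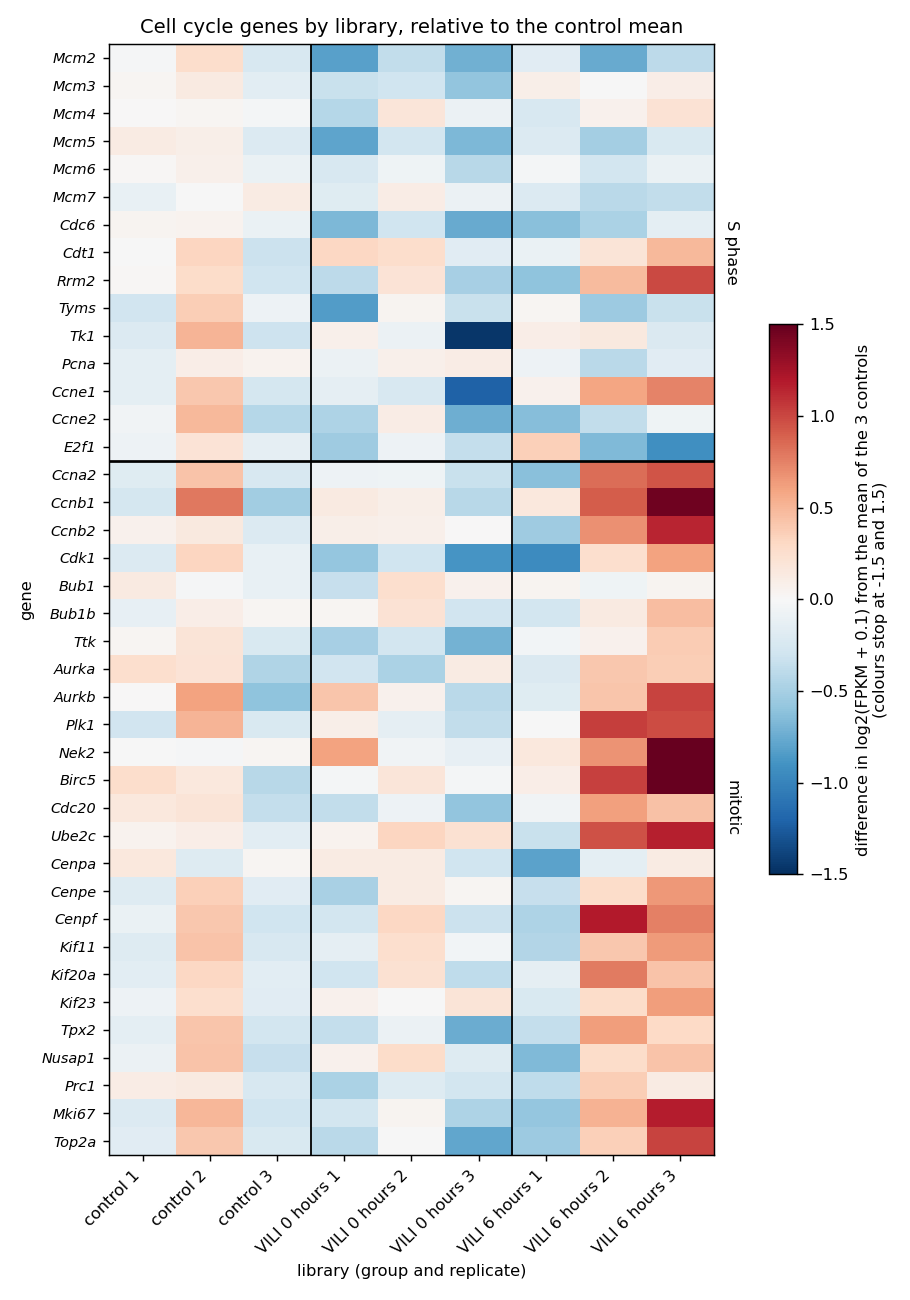
Level of each of the 40 members (rows) in each of the 9 libraries (columns) as the difference in log2(FPKM + 0.1) from the mean of the 3 controls, with colours stopping at 1.5 in either direction. The S phase genes are mostly blue at VILI 0 hours, and the mitotic genes are mostly red in VILI 6 hours replicates 2 and 3 and mostly not in replicate 1, with exceptions such as Nek2, which is above all controls in replicate 1, and Cenpa, which is below the control mean in replicate 2.

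In VILI 0 hours vs control, mice at the end of the ventilation procedure were compared with mice not put on a ventilator. Effects of the ventilation, the muscle relaxant, the length of anaesthesia and the controls' hypoventilation cannot be told apart here. The S phase genes were mostly lower: 13 of 15 had a negative log2 fold change, with a median of −0.36, beside a median of −0.07 over all genes tested. By library, the median difference of the S phase genes from the control mean was −0.39, −0.06 and −0.50 in replicates 1, 2 and 3 of VILI 0 hours and −0.02, 0.20 and −0.15 in those of control. Replicate 2 of VILI 0 hours was thus within the range of the controls, and control replicate 2 held the highest level of 7 of the 15 genes. At an unadjusted P under 0.05, 4 of the 15 were lower and 0 were higher, all 4 of them helicase or licensing genes. The 25 mitotic genes had a median of −0.09, and 0 of them reached that threshold in either direction. Over all genes, 9.35% were lower and 6.81% higher at this threshold, and 6.36% and 10% after each library was centred on its median. The 4 of 40 members (10%) are near that background, while the 4 S phase genes are 26.7% of their 15. After Benjamini-Hochberg adjustment over all genes, limma called 0 of the 40 members, with a lowest adjusted p of 0.184, beside 55 genes (0.284%).

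The Mcm genes encode subunits of the replicative helicase. Mcm2 stood at 5.12, 6.24 and 4.37 FPKM in the controls, 2.90, 4.004 and 3.10 FPKM in VILI 0 hours and 4.59, 3.04 and 3.93 FPKM in VILI 6 hours. Every library of VILI 0 hours was below every control library, and the log2 fold change was −0.64 (SE 0.21, limma unadjusted P = 0.0128, adjusted p = 0.189). Mcm5 was at 4.35, 4.28 and 3.45 FPKM in the controls, 2.27, 3.30 and 2.48 FPKM in VILI 0 hours and 3.45, 2.79 and 3.40 FPKM in VILI 6 hours. Its groups also did not overlap, with a log2 fold change of −0.58 at VILI 0 hours (SE 0.19, limma unadjusted P = 0.012, adjusted p = 0.184). Mcm5 has 3 rows in the table, between which its FPKM was split differently in each library. The row with the highest mean alone gave 0.06 (unadjusted P = 0.89), so the lower level holds for the sum of the rows.

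Mcm3 was at 6.65, 7.17 and 5.87 FPKM in the controls, fell below all of these in VILI 0 hours (5.15, 5.29 and 4.30 FPKM) and was back at 6.95, 6.50 and 7.04 FPKM in VILI 6 hours. Its log2 fold change was −0.41 at VILI 0 hours (SE 0.13, limma unadjusted P = 0.0123, adjusted p = 0.186). Cdc6, which loads the helicase, was at 0.782, 0.787 and 0.701 FPKM in the controls, 0.437, 0.595 and 0.406 FPKM in VILI 0 hours and 0.456, 0.518 and 0.673 FPKM in VILI 6 hours. All 6 VILI libraries were below all 3 controls, with a log2 fold change of −0.58 at VILI 0 hours (SE 0.25, limma unadjusted P = 0.0459, adjusted p = 0.299). In all, 6 members lay wholly below control at VILI 0 hours, these 4 genes with the mitotic kinases Cdk1 and Ttk, and 0 lay wholly above, beside 21.6% and 12% of all genes.

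The calls were close to the threshold. Mcm2 lost its call without control replicate 2 (−0.50, unadjusted P = 0.0591), Mcm3 without control replicate 2 (−0.35, unadjusted P = 0.0571) or replicate 3 of VILI 0 hours (−0.32, unadjusted P = 0.0537), and Cdc6 in 6 of the 9 fits that left out 1 library. These were any 1 control, VILI 0 hours replicate 1 or 3, and VILI 6 hours replicate 2 (−0.63 to −0.49). Mcm5 kept its call in all 9 (highest unadjusted P = 0.0471). With each library centred on its median, Mcm2 and Mcm5 remained under the threshold and the median of all genes moved from −0.07 to 0.05. The S phase median was then −0.24, and the mitotic median 0.02.

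The other helicase and licensing genes differed less. Mcm6 was at 9.33, 9.67 and 8.59 FPKM in the controls, 7.76, 8.79 and 6.86 FPKM in VILI 0 hours and 9.04, 7.59 and 8.59 FPKM in VILI 6 hours, and the groups overlapped. Mcm7 was at 9.49, 10.2 and 11.2 FPKM in the controls, and VILI 0 hours held 9.004, 11.1 and 9.63 FPKM. It had the lowest levels of the 9 libraries in VILI 6 hours, at 8.91, 7.71 and 7.93 FPKM. Mcm4 had a log2 fold change of −0.11 at VILI 0 hours (95% CI −0.50 to 0.27), and the licensing factor Cdt1 one of 0.13 (95% CI −0.39 to 0.66).

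Among the genes of nucleotide supply, Rrm2, the S phase subunit of ribonucleotide reductase, was at 2.99, 3.59 and 2.37 FPKM in the controls, 2.22, 3.40 and 2.06 FPKM in VILI 0 hours and 1.90, 4.13 and 5.95 FPKM in VILI 6 hours. Its libraries of VILI 6 hours thus held both the lowest and the highest of the 9 values. Pcna was at 28.7, 34.0 and 32.9 FPKM in the controls, 29.8, 33.6 and 34.3 FPKM in VILI 0 hours and 30.1, 24.1 and 28.2 FPKM in VILI 6 hours. The thymidylate genes Tyms and Tk1 had log2 fold changes of −0.37 and −0.49 at VILI 0 hours and of −0.28 and 0.01 at VILI 6 hours, with a smallest unadjusted P of 0.208 in these 4 tests.

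Of the genes that drive entry into S phase, E2f1 was at 2.53, 3.09 and 2.43 FPKM in the controls, 1.82, 2.52 and 2.06 FPKM in VILI 0 hours and 3.45, 1.65 and 1.37 FPKM in VILI 6 hours. Here replicate 1 of VILI 6 hours was the highest of the 9 libraries and replicates 2 and 3 the lowest. Ccne1, a cyclin E gene, was at 0.484, 0.757 and 0.436 FPKM in the controls, 0.487, 0.447 and 0.179 FPKM in VILI 0 hours and 0.573, 0.874 and 0.977 FPKM in VILI 6 hours. Ccne2, its paralogue, was at 1.03, 1.55 and 0.771 FPKM in the controls, 0.755, 1.17 and 0.609 FPKM in VILI 0 hours and 0.656, 0.806 and 1.02 FPKM in VILI 6 hours.

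**Figure D3:**
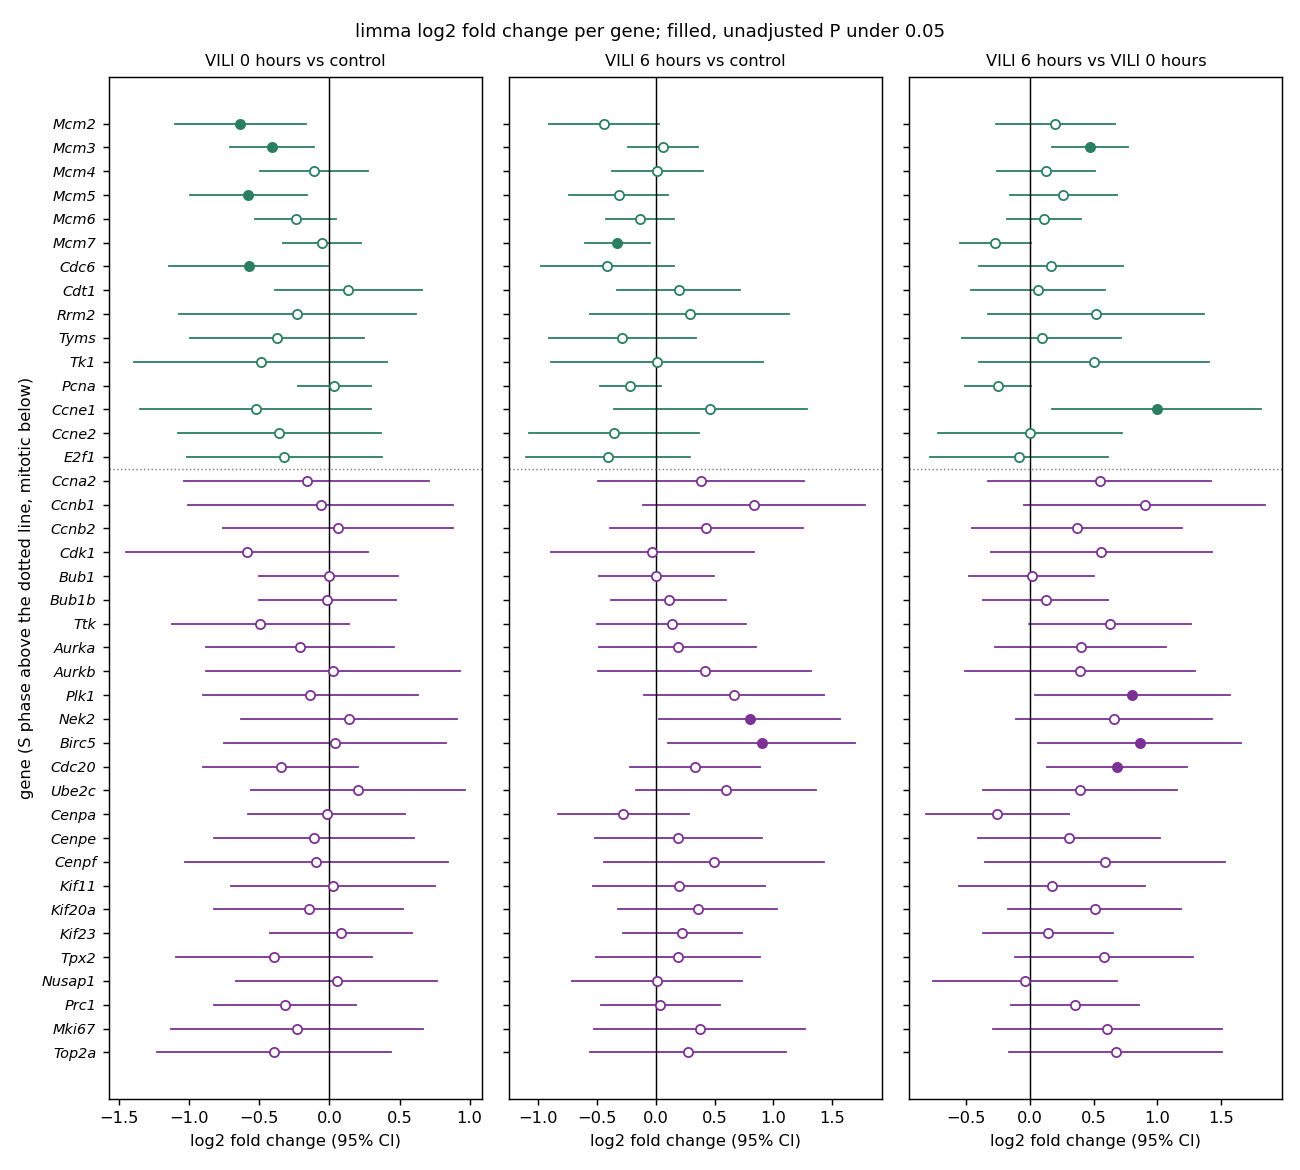
limma log2 fold change of each member with its 95% confidence interval in the 3 comparisons, S phase genes above the dotted line and mitotic genes below, filled where the unadjusted P was under 0.05. Filled points are Mcm2, Mcm3, Mcm5 and Cdc6 on the negative side at VILI 0 hours, Birc5 and Nek2 on the positive and Mcm7 on the negative side at VILI 6 hours, and Mcm3, Ccne1, Plk1, Birc5 and Cdc20 on the positive side between the times.

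In VILI 6 hours vs control, the state 6 hours after the ventilation was compared. The mitotic genes were mostly higher: 23 of 25 had a positive log2 fold change, with a median of 0.28, while the S phase genes had a median of −0.22 and all genes one of −0.09. At an unadjusted P under 0.05, 2 members were higher (Birc5 and Nek2) and 1 was lower (Mcm7), beside 8.17% and 12.2% of all genes (11.7% and 8.46% with centred libraries, where Birc5 and Nek2 were higher and 0 members lower). These 3 of 40 members (7.5%) are below the 20.4% of all genes called in either direction. After adjustment, limma called 0 members (lowest adjusted p = 0.193), beside 136 genes (0.702%).

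Birc5 encodes survivin, a part of the chromosomal passenger complex. It was at 1.63, 1.51 and 0.978 FPKM in the controls, 1.31, 1.54 and 1.32 FPKM in VILI 0 hours and 1.44, 2.84 and 4.21 FPKM in VILI 6 hours. Replicates 2 and 3 of VILI 6 hours were above all other libraries and replicate 1 was among the controls, with a log2 fold change against control of 0.90 (SE 0.35, limma unadjusted P = 0.0301, adjusted p = 0.202). Nek2, a centrosomal kinase, was at 1.46, 1.45 and 1.49 FPKM in the controls, 2.28, 1.41 and 1.34 FPKM in VILI 0 hours and 1.65, 2.40 and 4.55 FPKM in VILI 6 hours. It was the 1 member wholly above control at VILI 6 hours, beside 9.64% of all genes, with a log2 fold change of 0.80 (SE 0.34, limma unadjusted P = 0.0435, adjusted p = 0.232). Mcm7, lower by its values above, had a log2 fold change of −0.33 (SE 0.12, limma unadjusted P = 0.0266, adjusted p = 0.193), and lay wholly below control together with Cdc6, beside 15% of all genes. Birc5 lost its call without control replicate 3 or VILI 6 hours replicate 2 or 3 (0.69, 0.84 and 0.56), and Mcm7 without control replicate 2 or 3 or VILI 6 hours replicate 2 or 3 (−0.33 to −0.27). Nek2 kept its call only without replicate 1 of VILI 0 hours or VILI 6 hours replicate 1, and was at 0.42 (unadjusted P = 0.16) without VILI 6 hours replicate 3.

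The cyclins of this class also separated replicates 2 and 3 of VILI 6 hours from replicate 1. Ccna2, the cyclin of S phase and early mitosis, was at 1.84, 2.86 and 1.77 FPKM in the controls, 1.99, 2.01 and 1.65 FPKM in VILI 0 hours and 1.33, 3.85 and 4.14 FPKM in VILI 6 hours. Ccnb2, a cyclin B gene, was at 1.72, 1.82 and 1.42 FPKM in the controls, 1.76, 1.74 and 1.66 FPKM in VILI 0 hours and 1.10, 2.71 and 3.74 FPKM in VILI 6 hours. For both, replicate 1 of VILI 6 hours was the lowest library and replicates 2 and 3 the highest. Ccnb1 had log2 fold changes of 0.84 against control and 0.90 against VILI 0 hours (limma unadjusted P = 0.0761 and 0.0593).

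Mki67, the nuclear antigen used to mark dividing cells, was at 4.23, 6.95 and 3.93 FPKM in the controls, 4.01, 5.03 and 3.50 FPKM in VILI 0 hours and 3.23, 7.07 and 11.1 FPKM in VILI 6 hours. Top2a, the topoisomerase that untangles sister chromatids, was at 4.51, 6.79 and 4.34 FPKM in the controls, 3.83, 5.10 and 2.93 FPKM in VILI 0 hours and 3.46, 6.57 and 10.4 FPKM in VILI 6 hours. Control replicate 2 was near VILI 6 hours replicate 2 for both. The SD of the 3 libraries of VILI 6 hours was 3.95 FPKM for Mki67 and 3.50 FPKM for Top2a, larger than the difference of the means from control.

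Of the genes that release cells from mitosis, Cdc20, an activator of the anaphase-promoting complex, was at 2.52, 2.58 and 1.73 FPKM in the controls, 1.71, 2.13 and 1.45 FPKM in VILI 0 hours and 2.16, 3.50 and 3.07 FPKM in VILI 6 hours. Ube2c, its ubiquitin-conjugating enzyme, was at 2.37, 2.46 and 2.03 FPKM in the controls, 2.38, 2.89 and 2.695 FPKM in VILI 0 hours and 1.80, 4.52 and 5.23 FPKM in VILI 6 hours. Ube2c was the member with the largest positive log2 fold change at VILI 0 hours, at 0.20 (SE 0.34, unadjusted P = 0.561). Among the kinases, Plk1 was at 0.754, 1.38 and 0.791 FPKM in the controls, 1.01, 0.850 and 0.703 FPKM in VILI 0 hours and 0.933, 2.03 and 1.95 FPKM in VILI 6 hours. The checkpoint kinase Bub1b was at 2.42, 2.83 and 2.7 FPKM in the controls, 2.71, 3.09 and 2.14 FPKM in VILI 0 hours and 2.18, 2.92 and 3.67 FPKM in VILI 6 hours.

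The centromere and spindle genes were less uniform. Cenpa, the histone of the centromere, was at 3.68, 2.86 and 3.36 FPKM in the controls, 3.59, 3.57 and 2.64 FPKM in VILI 0 hours and 1.84, 2.96 and 3.59 FPKM in VILI 6 hours. With a log2 fold change of −0.27 it was 1 of the 2 mitotic genes on the negative side at VILI 6 hours, beside Cdk1 at −0.03. Cenpf, of the outer kinetochore, was at 0.738, 1.09 and 0.633 FPKM in the controls, 0.646, 1.02 and 0.623 FPKM in VILI 0 hours and 0.557, 1.95 and 1.42 FPKM in VILI 6 hours. Kif23, a motor of cytokinesis, was at 2.53, 3.20 and 2.38 FPKM in the controls, 2.796, 2.67 and 3.07 FPKM in VILI 0 hours and 2.27, 3.27 and 4.18 FPKM in VILI 6 hours. Prc1, which bundles the midzone microtubules, was at 2.54, 2.57 and 1.96 FPKM in the controls, 1.66, 2.04 and 1.91 FPKM in VILI 0 hours and 1.77, 3.05 and 2.57 FPKM in VILI 6 hours. For Cenpa, Cenpf and Kif23, replicate 1 of VILI 6 hours was the lowest of the 9 libraries. The remaining 10 mitotic genes, Bub1, Ttk, Aurka, Aurkb, Cenpe, Kif11, Kif20a, Tpx2, Nusap1 and Ccnb1, had log2 fold changes against control of 0.01 to 0.84 at VILI 6 hours, with 0 under the threshold.

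Counted over all 25 mitotic genes, 15 had their highest level in VILI 6 hours replicate 3 and 7 in replicate 2, while 10 had their lowest level in replicate 1. Of all genes tested, 13.9%, 8.36% and 9.74% did so. The summed level of the mitotic genes was 34.5 FPKM in replicate 1, 64.9 FPKM in replicate 2 and 81.1 FPKM in replicate 3, against control libraries at 38.5 to 55.2 FPKM and libraries of VILI 0 hours at 36.5 to 46.6 FPKM. The summed level of the S phase genes was 74.6 to 85.4 FPKM in VILI 6 hours, 74.8 to 90.5 FPKM in VILI 0 hours and 85.4 to 98.2 FPKM in the controls. This sum was without such a spread, but Pcna alone made up 24.1 to 30.1 FPKM of it in VILI 6 hours. Single S phase genes did spread there, such as Rrm2 (1.90 to 5.95 FPKM) and E2f1 (1.37 to 3.45 FPKM).

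**Figure D4:**
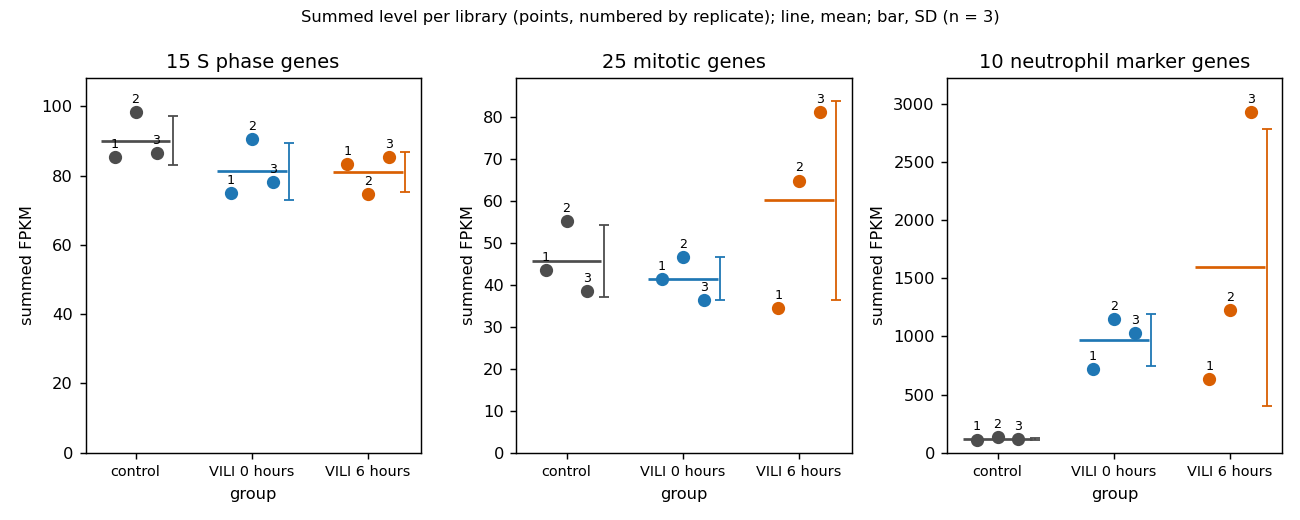
Summed FPKM of the 15 S phase genes, the 25 mitotic genes and 10 neutrophil marker genes in each library (points, numbered by replicate) by group, with the mean (line) and SD (bar) of 3 libraries. The mitotic sum of VILI 6 hours runs from 34.5 FPKM in replicate 1, below all controls, to 81.1 FPKM in replicate 3, and the neutrophil sum has the same order of replicates there.

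Markers of other cells also differed between these libraries, some in the order of the mitotic sum and some not. The summed level of 10 neutrophil markers was 113 to 131 FPKM in the controls and 719 to 1152 FPKM in VILI 0 hours. It was 630, 1229 and 2927 FPKM in replicates 1, 2 and 3 of VILI 6 hours, with Lcn2 alone at 881 FPKM in replicate 3. Csf3r was the exception to this order in the list, at 36.8, 24.7 and 27.9 FPKM. Of the 10, 9 were higher at VILI 0 hours and 10 at VILI 6 hours against control at an unadjusted P under 0.05, and 7 and 8 after adjustment. The sum of 6 B cell markers was 48.0 to 63.5 FPKM in the controls, 20.5 to 64.7 FPKM in VILI 0 hours and 13.8, 39.4 and 20.8 FPKM in VILI 6 hours. That of 5 T cell markers was 16.2 to 21.5 FPKM in the controls, 14.7 to 27.9 FPKM in VILI 0 hours and 8.10, 16.6 and 23.0 FPKM in VILI 6 hours. Only replicate 1 of VILI 6 hours was thus below all controls for the T cell sum. The part of neutrophils, B cells and T cells in the mitotic genes was not tested. The 7 markers of dividing granulocyte precursors summed to at most 1.25 FPKM in any library. Of these, 3 were at 0 in every control, Mpo and Elane (granule enzymes made before neutrophils leave the marrow) were at most 0.190 FPKM in any library, and Prtn3 was at 0.305 to 0.986 FPKM, its highest in VILI 6 hours replicate 1, a level that the lowest members also have. Of 6 thymocyte markers, Rag2 was at 0 in all libraries and Rag1, Dntt and Ptcra were at most 0.185 FPKM. Cd8b1 and Themis, which mature T cells also express, made up the rest. The sum of the 6 was 2.20, 3.84 and 7.34 FPKM in replicates 1, 2 and 3 of VILI 6 hours, in the order of the mitotic sum. It was 4.11 to 6.67 FPKM in the controls and 2.97 to 6.19 FPKM in VILI 0 hours. The sum of 6 erythroid precursor markers was lower in both VILI groups (20.9 to 28.8 FPKM at VILI 0 hours and 17.1 to 28.6 FPKM at VILI 6 hours) than in the controls (37.5 to 43.8 FPKM), and its part in the S phase genes was not tested. The sum of 6 fibroblast markers was also wholly below the controls (583 to 700 FPKM) at VILI 0 hours (479 to 574 FPKM), with 2 of the 6 lower at an unadjusted P under 0.05 and a median of −0.33, and was 473 to 644 FPKM at VILI 6 hours. The sum of 7 alveolar macrophage markers was 228 to 319 FPKM in the controls, 393 to 451 FPKM in VILI 0 hours (5 of 7 higher) and 645, 252 and 338 FPKM in replicates 1, 2 and 3 of VILI 6 hours (4 of 7 lower between the times), with Chil3 alone at 528 FPKM in replicate 1. The sum of 6 cardiac muscle markers was 302 FPKM in VILI 0 hours replicate 3, which held the lowest level of 6 S phase and 8 mitotic members, and 136 to 167 FPKM in the other libraries. The part of these cells in the members' levels was not tested.

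Without VILI 6 hours replicate 1, many more members passed, and so did many more genes. In VILI 6 hours vs control, 13 members were then higher (12 of them mitotic) and 4 lower at an unadjusted P under 0.05, beside 12.8% and 26% of all genes. After adjustment over all genes, 6 mitotic genes were higher and E2f1 was lower, beside 23.3% of all genes called. The 6 were Ube2c (log2 fold change 1.06, limma adjusted p = 0.00409), Birc5 (1.30, adjusted p = 0.0108), Ccnb2 (0.91, adjusted p = 0.0143), Ccna2 (0.89, adjusted p = 0.0244), Nek2 (1.12, adjusted p = 0.0304) and Plk1 (1.01, adjusted p = 0.0355). E2f1 was at −0.79 (adjusted p = 0.0253). The mitotic median was 0.53 and the S phase median −0.22, beside −0.14 over all genes. These values rest on 2 libraries of VILI 6 hours. Without replicate 3 instead, the mitotic median was 0.08 with 15 of 25 genes positive, and 0 members were under the threshold, beside 14.1% of all genes. Without replicate 2 it was 0.16, again with 0 members, beside 14.5% of all genes.

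Between VILI 0 hours and VILI 6 hours, the question was what changed after the ventilation had ended. Both classes were mostly higher at the later time, with 34 of 40 members on the positive side and medians of 0.51 for the mitotic and 0.13 for the S phase genes, beside −0.02 over all genes. At an unadjusted P under 0.05, 5 members were higher (12.5%) and 0 lower, beside 5.06% and 4.94% of all genes. After adjustment, limma called 0 members and 0 genes.

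The 5 were Mcm3 (log2 fold change 0.47, SE 0.13, limma unadjusted P = 0.00583), Cdc20 (0.68, SE 0.25, unadjusted P = 0.0206), Ccne1 (0.99, SE 0.37, unadjusted P = 0.0228), Birc5 (0.86, SE 0.35, unadjusted P = 0.0364) and Plk1 (0.80, SE 0.34, unadjusted P = 0.0411), with adjusted p of 0.318 to 0.476. All libraries of VILI 6 hours were above all of VILI 0 hours for Mcm3, Cdc20 and Ccne1 of these, as for Ccnb1 and Ttk, which makes 5 members beside 6.25% of all genes. Mcm7 lay wholly below, beside 6.28%. Mcm3 kept its call in all 9 fits that left out 1 library (0.38 to 0.53). Cdc20 and Ccne1 each lost theirs without replicate 3 of VILI 0 hours or VILI 6 hours replicate 2 or 3 (0.54 to 0.63 and 0.65 to 0.93). Birc5 lost its call without any 1 library of VILI 0 hours and without VILI 6 hours replicate 2 or 3 (0.52 to 0.93), and Plk1 without control replicate 3, replicate 2 or 3 of VILI 0 hours or VILI 6 hours replicate 2 or 3 (0.62 to 0.81). Without VILI 6 hours replicate 1, 19 members were higher and 3 lower, beside 8.55% and 13.9% of all genes, with Ube2c called after adjustment beside 1.84% of all genes (0.86, limma adjusted p = 0.0422). Replicate 1 had the lowest mitotic sum, so leaving it out by itself tends to raise the mitotic fold changes. This comparison shares its libraries of VILI 0 hours with the first and those of VILI 6 hours with the second.

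Other genes of the same processes were taken from lists of general knowledge, also with earlier results of these data known. Of 40 other replication genes, 34 were on the negative side at VILI 0 hours, 0 were higher and 5 lower at an unadjusted P under 0.05 (12.5%, near the 9.35% of all genes that were lower), and the median was −0.24. At VILI 6 hours 0 were higher and 4 lower (10%, beside 12.2% of all genes lower), and between the times 1 was higher and 0 lower (2.5%, beside 5.06% of all genes higher). Pola1, the catalytic subunit of DNA polymerase alpha, was at 3.94, 4.61 and 4.77 FPKM in the controls, 2.43, 3.37 and 3.07 FPKM in VILI 0 hours and 3.72, 2.73 and 3.09 FPKM in VILI 6 hours (log2 fold changes −0.58 and −0.47, limma unadjusted P = 0.0101 and 0.0263). Its libraries of both VILI groups were below all controls. Pola2, its regulatory subunit, had −0.37 and −0.48 (unadjusted P = 0.0535 and 0.0184, the second lost without control replicate 1 at −0.42 or VILI 6 hours replicate 3 at −0.37). Uhrf1, which keeps up DNA methylation at the fork, was at 1.98, 2.55 and 1.78 FPKM in the controls, 1.06, 1.73 and 1.17 FPKM in VILI 0 hours and 1.89, 1.85 and 2.61 FPKM in VILI 6 hours. It was lower at VILI 0 hours (−0.65, unadjusted P = 0.0254) and higher again between the times (0.66, unadjusted P = 0.0243), and lost both calls without VILI 0 hours replicate 1 or 3, the first without control replicate 2 and the second without VILI 6 hours replicate 3 (−0.58 to −0.51 and 0.50 to 0.59). The row of Uhrf1 with the highest mean alone gave −1.44 between the times, so this direction holds for its summed rows. Gmnn, the inhibitor of licensing, was lower at VILI 6 hours (−0.44, unadjusted P = 0.0223, lost without control replicate 2 or VILI 6 hours replicate 2 or 3 at −0.38 to −0.37, and −0.59 with a limma adjusted p of 0.0185 without replicate 1), and Gins1, of the replicative helicase, had 0.52 between the times (unadjusted P = 0.0898).

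Of 57 other mitotic genes, 45 were on the negative side at VILI 0 hours with a median of −0.25, 0 were higher and 4 lower (7.02%, beside 9.35% of all genes lower), so that the small mitotic median of the members at that time (−0.09) was not shared by this longer list. At VILI 6 hours their median was 0.10 with 1 higher and 1 lower, beside 8.17% and 12.2% of all genes. Between the times 53 of 57 were positive with a median of 0.34, 4 higher and 2 lower, beside 5.06% and 4.94% of all genes. Mad2l1, of the spindle checkpoint, was at 3.01, 2.85 and 2.91 FPKM in the controls, 1.30, 1.97 and 1.98 FPKM in VILI 0 hours and 2.46, 1.88 and 2.60 FPKM in VILI 6 hours, all 6 VILI libraries below all controls (−0.73 at VILI 0 hours, limma unadjusted P = 0.00618, adjusted p = 0.14). Cit, a kinase of cytokinesis, had −0.83 at VILI 0 hours (unadjusted P = 0.0057). Cenpm and Cdca8, of the centromere and the passenger complex, were higher between the times (1.01, unadjusted P = 0.00973, and 0.62, unadjusted P = 0.0195), of which Cdca8 lost its call without replicate 3 of VILI 0 hours (0.50) or VILI 6 hours replicate 2 (0.57). Lmnb1, the gene of lamin B1, and Smc4, of condensin, were the 2 with the smallest P at VILI 6 hours, 0.72 (unadjusted P = 0.0181) and −0.25 (unadjusted P = 0.0391). Lmnb1 lost its call without VILI 6 hours replicate 3 (0.49) and was at 0.91 with a limma adjusted p of 0.0306 without replicate 1, and Smc4 without any 1 control or VILI 6 hours replicate 1 (−0.27 to −0.17).

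Among the regulators upstream, of 9 genes of G1 cyclins, kinases and phosphatases, 3 were lower and 0 higher at VILI 0 hours (beside 9.35% and 6.81% of all genes), 2 were lower and 1 higher at VILI 6 hours (beside 12.2% and 8.17%), and 0 were lower and 1 higher between the times (beside 4.94% and 5.06%). Ccnd2, a D-type cyclin, was at 51.1, 47.7 and 51.4 FPKM in the controls, 38.1, 38.8 and 35.6 FPKM in VILI 0 hours and 41.0, 32.4 and 34.7 FPKM in VILI 6 hours. Both VILI groups lay wholly below control, with log2 fold changes of −0.41 and −0.48 (SE 0.10 for each, limma adjusted p = 0.105 and 0.0702). Cdk6, a partner kinase of the D cyclins, was at 21.4, 19.2 and 19.98 FPKM in the controls, 17.7, 16.5 and 16.1 FPKM in VILI 0 hours and 16.0, 17.1 and 16.1 FPKM in VILI 6 hours, also without overlap (−0.26 and −0.30, adjusted p = 0.206 and 0.137, the first lost without control replicate 1 at −0.22 or VILI 0 hours replicate 3 at −0.24). Ccnd1 was at 49.2, 44.1 and 42.2 FPKM in the controls, lower in VILI 0 hours (30.7, 35.3 and 34.5 FPKM) and higher again in VILI 6 hours (63.1, 44.3 and 38.7 FPKM), with a log2 fold change between the times of 0.51 (unadjusted P = 0.0124, adjusted p = 0.369). Myc, a growth-promoting transcription factor of immediate response, was at 2.55, 2.702 and 1.78 FPKM in the controls, 4.97, 3.41 and 2.18 FPKM in VILI 0 hours and 3.23, 6.20 and 11.0 FPKM in VILI 6 hours, with the same order of replicates at VILI 6 hours as the mitotic sum.

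The 12 inhibitors and brakes of the cycle went both ways, with 5 higher and 2 lower at VILI 0 hours (beside 6.81% and 9.35% of all genes), 3 and 3 at VILI 6 hours (beside 8.17% and 12.2%), and 0 and 3 between the times (beside 5.06% and 4.94%). Cdkn2c, the inhibitor p18 of the D cyclin kinases, was at 16.6, 13.8 and 14.6 FPKM in the controls, 9.44, 8.69 and 7.68 FPKM in VILI 0 hours and 12.1, 8.19 and 6.73 FPKM in VILI 6 hours. Both VILI groups lay below control without overlap (log2 fold changes −0.80 and −0.77, limma unadjusted P = 0.00282 and 0.00349, adjusted p = 0.105 and 0.101). Cdkn2a, of the same family of inhibitors, was low throughout, at 0.471, 0.256 and 0.348 FPKM in the controls, with at most 0.115 FPKM in any library of VILI 0 hours (−1.29, unadjusted P = 0.00377, adjusted p = 0.115) and 0.120, 0.158 and 0.115 FPKM in VILI 6 hours. Cdkn1b, the inhibitor p27 of resting cells, was at 32.9, 23.4 and 26.02 FPKM in the controls, 42.1, 31.7 and 33.5 FPKM in VILI 0 hours and 22.9, 21.3 and 19.965 FPKM in VILI 6 hours. The fall between the times was without overlap (−0.73, SE 0.15, unadjusted P = 0.000811, adjusted p = 0.184) and held in all 9 fits that left out 1 library (−0.81 to −0.61).

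Btg1 and Btg2 encode antiproliferative proteins. Btg1 was at 35.6, 32.3 and 33.4 FPKM in the controls, 54.0, 47.7 and 63.7 FPKM in VILI 0 hours and 39.0, 50.7 and 79.1 FPKM in VILI 6 hours, all VILI libraries above all controls (0.70 and 0.67, limma unadjusted P = 0.0114 and 0.0136). Btg2 was at 54.5, 47.9 and 48.4 FPKM in the controls, 80.2, 71.8 and 216 FPKM in VILI 0 hours and 57.4, 58.1 and 66.5 FPKM in VILI 6 hours. Its log2 fold change between the times, −0.83 (unadjusted P = 0.0369), lost its call without control replicate 3 or any 1 library of VILI 6 hours (−0.90 to −0.79), and was −0.33 without VILI 0 hours replicate 3. Cdkn1a, the inhibitor p21 induced by p53, was chosen after its values were seen: 14.2, 19.0 and 15.6 FPKM in the controls, 207, 43.0 and 173 FPKM in VILI 0 hours and 22.4, 133 and 202 FPKM in VILI 6 hours. All VILI libraries were above all controls, and at VILI 6 hours the order of replicates was again that of the mitotic sum (log2 fold changes 2.83 and 2.38, limma adjusted p = 0.135 and 0.156, the second at 2.05 and an unadjusted P of 0.0545 without VILI 6 hours replicate 2 and at 1.75 and 0.0572 without replicate 3).

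Of 16 pocket proteins, DREAM subunits and E2F factors, 2 were higher and 2 lower at VILI 0 hours (beside 6.81% and 9.35% of all genes), 0 and 2 at VILI 6 hours (12.5% of the 16, below the 20.4% of all genes called there), and 2 and 1 between the times (beside 5.06% and 4.94%). Rbl1, the pocket protein p107 and itself an E2F target, was at 6.53, 6.92 and 7.05 FPKM in the controls, 3.72, 5.33 and 4.03 FPKM in VILI 0 hours and 5.67, 4.15 and 3.64 FPKM in VILI 6 hours. Both VILI groups lay wholly below control (−0.65 and −0.62, limma unadjusted P = 0.00743 and 0.00987, adjusted p = 0.15 and 0.139). Tfdp2, a dimer partner of the E2Fs, was at 11.6, 13.2 and 14.5 FPKM in the controls, 19.1, 18.1 and 27.04 FPKM in VILI 0 hours and 11.4, 16.9 and 13.5 FPKM in VILI 6 hours (0.69 at VILI 0 hours and −0.61 between the times, unadjusted P = 0.00488 and 0.00937). The direction of Tfdp2 holds for its summed rows: its row with the highest mean alone gave −0.51 and 0.70. E2f3 was higher between the times (0.60, unadjusted P = 0.0107), and E2f6, a repressor, was lower at VILI 6 hours (−0.60, unadjusted P = 0.0362), with 7.36 FPKM in replicate 1 and 4.37 and 3.28 FPKM in replicates 2 and 3, beside 7.12 to 7.34 FPKM in control. E2f6 lost its call without any 1 control or VILI 6 hours replicate 2 or 3 (−0.61 to −0.34), and was at −0.91 with a limma adjusted p of 0.00474 without replicate 1.

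Without VILI 6 hours replicate 1, genes of these lists were also called after adjustment over all genes, beside the 23.3% of all genes called at VILI 6 hours. Of the other replication genes, 2 were higher and 5 lower, and of the other mitotic genes 3 were higher and 0 lower. Of the G1 genes 1 was higher and 2 were lower, of the brakes 3 were higher and 1 was lower, and of the pocket proteins, DREAM subunits and E2F factors 0 were higher and 2 lower. Among the regulators above, Ccnd2 was at −0.58 (limma adjusted p = 0.00333), Cdkn2c at −1.0005 (adjusted p = 0.00271), Rbl1 at −0.80 (adjusted p = 0.0126), Myc at 1.80 (adjusted p = 0.0107), Btg1 at 0.91 (adjusted p = 0.0113) and Cdkn1a at 3.33 (adjusted p = 0.0061). Cdkn2d, an inhibitor of the D cyclin kinases, and Fen1, the flap endonuclease of the lagging strand, were chosen after their values were seen, at 1.94 (adjusted p = 0.000833) and 1.52 (adjusted p = 0.00545). With all 9 libraries they were at 1.30 and 0.92 (adjusted p = 0.173 and 0.282), with 6.32 FPKM for Cdkn2d and 1.27 FPKM for Fen1 in replicate 1, within or below the range of the controls. Between the times, Cdkn2d was the 1 gene of these lists called (1.10, adjusted p = 0.0369), beside 1.84% of all genes. These values rest on 2 libraries of VILI 6 hours, as above. In VILI 0 hours vs control, whose libraries stay the same, leaving that library out changed only the estimate of the spread, and 6.93% of all genes were then called after adjustment. Cdkn2c (limma adjusted p = 0.00971), Ccnd2 (0.017), Ccnd1 (0.035) and Rbl1 (0.0367) were among them as lower, and Cdkn1a (0.0159), Cdkn2d (0.031), Btg1 (0.04) and Tfdp2 (0.0441) as higher, while 0 of the other replication and other mitotic genes were.

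**Figure D5:**
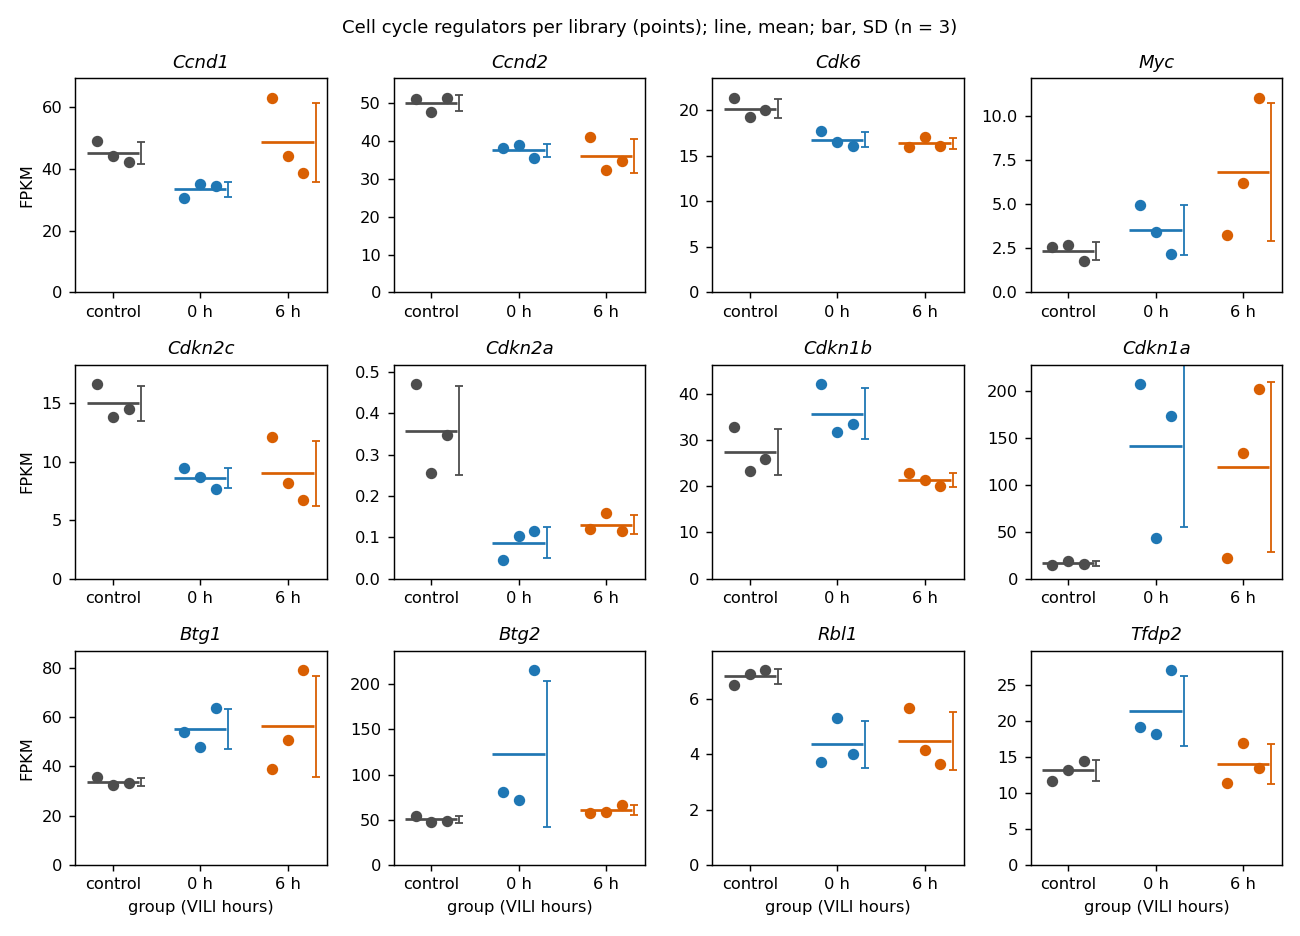
FPKM of 12 regulators of the cell cycle in each library (points) by group, with the mean (line) and SD (bar) of 3 libraries. Ccnd2, Cdk6, Cdkn2c, Cdkn2a and Rbl1 lie below control in both VILI groups, Btg1 and Cdkn1a above, and Cdkn1a spreads from 22.4 to 202 FPKM at VILI 6 hours.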

How the data were processed

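RNA of whole lung was measured in 9 libraries, 1 mouse each, grouped per the labels as control or by the hours after ventilation (0 or 6). The authors filtered the reads, aligned them with TopHat2 (2.0.9, with Bowtie2 2.0.6, to GRCm38 in the submitters' processing notes), assembled transcripts with Scripture and Cufflinks and deposited FPKM values from Cuffdiff (2.1.1). The labels and the methods name different library kits and sequencers, so whether reads were counted by strand is uncertain. The FPKM table holds no read counts, so the number of reads behind a value is not known from it, and precision is taken from the spread between 3 libraries of a group. By the paper's mapping statistics, replicates 2 and 3 of VILI 6 hours had the fewest uniquely mapped reads of the 9 libraries, and replicate 1 had more. The part of depth in the differences between these replicates was not tested. Column sums were 366360 to 388459 FPKM.

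FPKM of the 60108 rows were summed per gene (Ensembl ID without version, named by GENCODE M21) or assembled locus, giving 27203 features, of which 19378 had a mean of at least 0.1 FPKM over the 9 libraries. Of the 40 members, 27 have more than 1 row, and 6 rows of Aurka, Kif20a, Prc1 and Tpx2 stood at 0 in one library and at 1 FPKM or more in another. Group means on log2(FPKM + 0.1) were compared in 1 fit of all 9 libraries with limma 3.58.1 (lmFit, eBayes with trend) in R 4.3.3, which was tested on simulated data. A call is an unadjusted limma P under 0.05 (for its Cuffdiff transcripts the study gives P under 0.05 without saying whether it was adjusted), and adjusted p-values are Benjamini-Hochberg over all features tested. The pseudocount understates changes of low genes.

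The members and lists were chosen with earlier results of these data known. Members given in every library are the 2 with the highest mean in each role, those under the threshold in a comparison and the ones with the largest positive and negative log2 fold change. From each list of other genes they are the 2 with the lowest P in each comparison. The deviations of libraries with the same replicate number correlated at −0.22 to 0.02 across genes, so numbers were not taken to pair the mice. Alternatives were other pseudocounts and filters, median centring, the row with the highest mean, a fit of only the 2 groups compared, a replicate block, and leaving out each library. Promoter windows and starts are from RefSeq on GRCm38.p6.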

Additional observations from a re-analysis of the deposited data

Results flagged for a closer look

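The change from VILI 0 hours to VILI 6 hours, which is also the difference between the effects of the 2 times against the shared controls, had an unadjusted P under 0.05 (limma) for 13 of the genes described, 0 of them after adjustment over all genes. Among the members the log2 fold changes were 0.47 for Mcm3, 0.68 for Cdc20, 0.99 for Ccne1, 0.86 for Birc5 and 0.80 for Plk1. Among the other genes of the cell cycle they were 1.01 for Cenpm, 0.62 for Cdca8, 0.66 for Uhrf1, 0.60 for E2f3, 0.51 for Ccnd1, −0.73 for Cdkn1b, −0.61 for Tfdp2 and −0.83 for Btg2.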

How the results depend on the processing

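The FPKM table holds no counts and each group has 3 libraries, so counting error could not be given apart from the spread. Of 268 alternative values for the 15 pairs of member and comparison under the threshold or next to it, 202 kept direction and side, 59 lost the call, 6 gained one and 1 reversed: Mcm5 at VILI 0 hours was 0.064 with its row of the highest mean alone. The same setting reversed Tfdp2 (−0.51 and 0.70) and Uhrf1 (−1.44), and gave 3 members between the times, against 5. At VILI 0 hours, a fit of only the 6 libraries compared called 5094 genes, against 3130, and median centring called 2 members, against 4. Between the times, only the 6 libraries compared gave 1210 genes, against 1938. At VILI 6 hours, only the 6 libraries compared gave 1 member, against 3. The cause was not tested. Leaving out 1 library gave 1979 to 4493 genes and 1 to 5 members at VILI 0 hours, 2543 to 7526 genes and 0 to 17 members at VILI 6 hours, and 1407 to 4350 genes and 1 to 22 members between the times, with the highest count of genes each time without VILI 6 hours replicate 1. The numbers of genes called after adjustment (55, 136 and 0) were then 1343, 4512 and 356. The share of called genes that were higher was 42.1% at VILI 0 hours and 40.1% at VILI 6 hours, and 61.2% and 58.1% with centred libraries. When 1 library was left out, the median of the mitotic members ran from −0.24 to 0.05 at VILI 0 hours, from 0.08 to 0.53 at VILI 6 hours and from 0.27 to 0.85 between the times.

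With the replicate number as a block, 2816, 3485 and 1693 genes and 3, 1 and 4 members were under the threshold in the 3 comparisons. Libraries that share a number did not deviate together (correlations of −0.22 to 0.02), so the block was not used.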
